A study of Mus musculus with 2 samples.

Results

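The cartilage collagens and the aggrecan matrix were followed here as 10 genes taken by name: Col2a1, Col9a1, Col9a2, Col9a3, Col11a1, Col11a2, Acan, Matn4, Hapln1 and Cytl1. All 10 were listed at both stages, among 17775 genes at E13.5 and 16236 genes at E11.5. The choice was by name and not by a threshold on these counts. Their levels are given as CPM (UMIs, counts of unique transcript molecules, summed over the cells of a group and scaled to a sum of 1000000), with the share of cells that held a UMI. The cells came from the mandibular prominence, the tissue of the first pharyngeal arch from which the lower jaw forms, of wild-type CD1 mouse embryos. At embryonic day 13.5 (E13.5) it included the developing tongue and skeletal elements and was dissociated in the cold with 5 mg/ml of a bacterial protease and DNase. At embryonic day 11.5 (E11.5) it included the tongue bud and was dissociated with 3 mg/ml of the same protease. Each stage was 1 droplet library made on the 10x platform, so stage, library and protease concentration cannot be told apart, and the number of embryos behind a library is not given in the sources used here.

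Cartilage matrix is a mesh of type II collagen fibrils filled with aggrecan, a proteoglycan whose charged side chains hold water. Type XI collagen forms the core of the fibrils, type IX collagen coats them, link protein ties aggrecan to hyaluronan, and matrilins bridge the components. In the lower jaw the first cartilage is the rod of Meckel, which chondrocytes of the mesenchyme lay down under the transcription factor Sox9 and its partners Sox5 and Sox6, while bone forms beside it from cells that express Runx2 and Sp7.

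The 10 genes lie on 9 different chromosomes of the mouse build GRCm38, with coordinates from the GENCODE annotation. Only Col9a3 (chr2:180597790-180622189, + strand) and Matn4 (chr2:164389393-164405160, - strand) share a chromosome. Col2a1 lies at chr15:97975602-98004695 (- strand), Col9a1 at chr1:24177610-24252684, Col9a2 at chr4:121039385-121055322, Col11a1 at chr3:114030540-114220718, Col11a2 at chr17:34039437-34066685, Acan at chr7:79053483-79115099, Hapln1 at chr13:89539796-89611652 and Cytl1 at chr5:37735519-37739820, all of these on the + strand apart from Col2a1. RefSeq promoter entries matched 8 of the 10 genes, with 10 starts, since Col9a1 and Matn4 had 2 starts each. The counts are per gene and do not separate transcripts from different starts. The annotated gene Rbpjl overlaps the start of Matn4, so reads from that stretch may be uncertain between them.

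The 250 bases before the start are printed for 5 genes whose windows held no annotated exon: Col9a1 (its first start), which was lower at E13.5, Col11a1 and Col11a2, the type XI pair whose cells differed, and Acan and Cytl1, which had the highest ratios between the stages. Sequences are from RefSeq on GRCm38.p6, written 5′ to 3′ on the gene's strand. Capitals mark CAAAG or TATAAA on either strand.
Col9a1 promoter, chr1:24177360-24177609, + strand: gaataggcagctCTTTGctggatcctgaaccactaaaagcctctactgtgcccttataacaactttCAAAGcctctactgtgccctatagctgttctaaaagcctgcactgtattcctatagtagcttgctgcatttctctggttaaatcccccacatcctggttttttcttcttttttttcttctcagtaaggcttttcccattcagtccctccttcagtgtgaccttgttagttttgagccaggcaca
Col11a1 promoter, chr3:114030290-114030539, + strand: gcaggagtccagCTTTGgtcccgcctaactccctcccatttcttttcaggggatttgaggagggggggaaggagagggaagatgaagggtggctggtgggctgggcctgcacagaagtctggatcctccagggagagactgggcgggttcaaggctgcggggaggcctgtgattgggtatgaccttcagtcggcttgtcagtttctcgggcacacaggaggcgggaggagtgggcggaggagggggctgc
Col11a2 promoter, chr17:34038888-34039137, + strand: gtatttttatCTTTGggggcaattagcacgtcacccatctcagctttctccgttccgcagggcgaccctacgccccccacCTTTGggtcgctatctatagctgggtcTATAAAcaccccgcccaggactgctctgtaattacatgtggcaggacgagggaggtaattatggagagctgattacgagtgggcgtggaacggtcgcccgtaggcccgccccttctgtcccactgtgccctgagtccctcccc
Acan promoter, chr7:79052976-79053225, + strand: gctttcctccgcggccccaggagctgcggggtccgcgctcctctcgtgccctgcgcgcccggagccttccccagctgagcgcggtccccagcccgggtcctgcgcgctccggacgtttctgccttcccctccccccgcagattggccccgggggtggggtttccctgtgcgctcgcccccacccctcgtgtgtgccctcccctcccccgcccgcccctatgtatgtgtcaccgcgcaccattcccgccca
Cytl1 promoter, chr5:37735269-37735518, + strand: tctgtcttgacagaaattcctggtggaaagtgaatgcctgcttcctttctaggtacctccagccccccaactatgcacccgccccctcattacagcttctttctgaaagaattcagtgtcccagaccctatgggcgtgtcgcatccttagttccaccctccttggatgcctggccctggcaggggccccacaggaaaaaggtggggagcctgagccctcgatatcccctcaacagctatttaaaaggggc
Of the SOX-type words searched on both strands, ACAAAG was in 16.5% of all 32851 promoters of that length. The word ACAATG was in 10.7% of them, and the word AACAAT in 9.42%. None of these was found in any of the 10 member windows. The shorter core CAAAG, which is contained in ACAAAG, was in 5 of the 10 member windows and in 48.6% of all promoters. TATAAA was in 1 member window, that of Col11a2, and in 12.4% of all promoters. These are matches of letters in these windows and say nothing about binding. The Acan window was the richest in G and C of the 10, at 74.4%, and the Col9a1 window printed above was the poorest, at 43.6%, with 26 and 0 CG pairs. The Acan window also lies within the annotated span of Gm26633, outside its exons.

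The libraries held 6318 cells with 67838169 UMIs at E13.5 (median 9280 per cell) and 7099 cells with 49913485 UMIs at E11.5 (median 6231). The authors' clusters, 22 at E13.5 and 18 at E11.5, were grouped into classes, of which the mesenchyme held 3905 cells at E13.5 and 5899 at E11.5. The libraries shared 71 cell barcodes. A marker of embryo sex differed: 2721 of the 3905 mesenchyme cells at E13.5 held no UMI of Xist, which is transcribed from an inactive X chromosome, against 5897 of 5899 at E11.5. All intervals are 95% intervals and cover counting error only. With 1 library per stage there is no replicate check, and no p-value is given.

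In the mesenchyme as a whole, most cartilage matrix genes were at higher levels at E13.5. Of the 10 genes, 8 were at least 1.5-fold higher with an interval that excluded 1, 1 was lower and 1 was within these limits. Of the genes listed at both stages, 14139 had at least 20 UMIs in the mesenchyme of both libraries together. Among them 27.0% were higher and 12.2% lower by the same rule, which is a rule of size and not a test. The median log2 ratio, E13.5 over E11.5, was 2.94 for the 10 genes and 0.14 for all genes. In sums over a class, fewer expressing cells and less RNA per cell cannot be told apart, so the spread over clusters and cells is given for each group of genes.

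**Figure D1:**
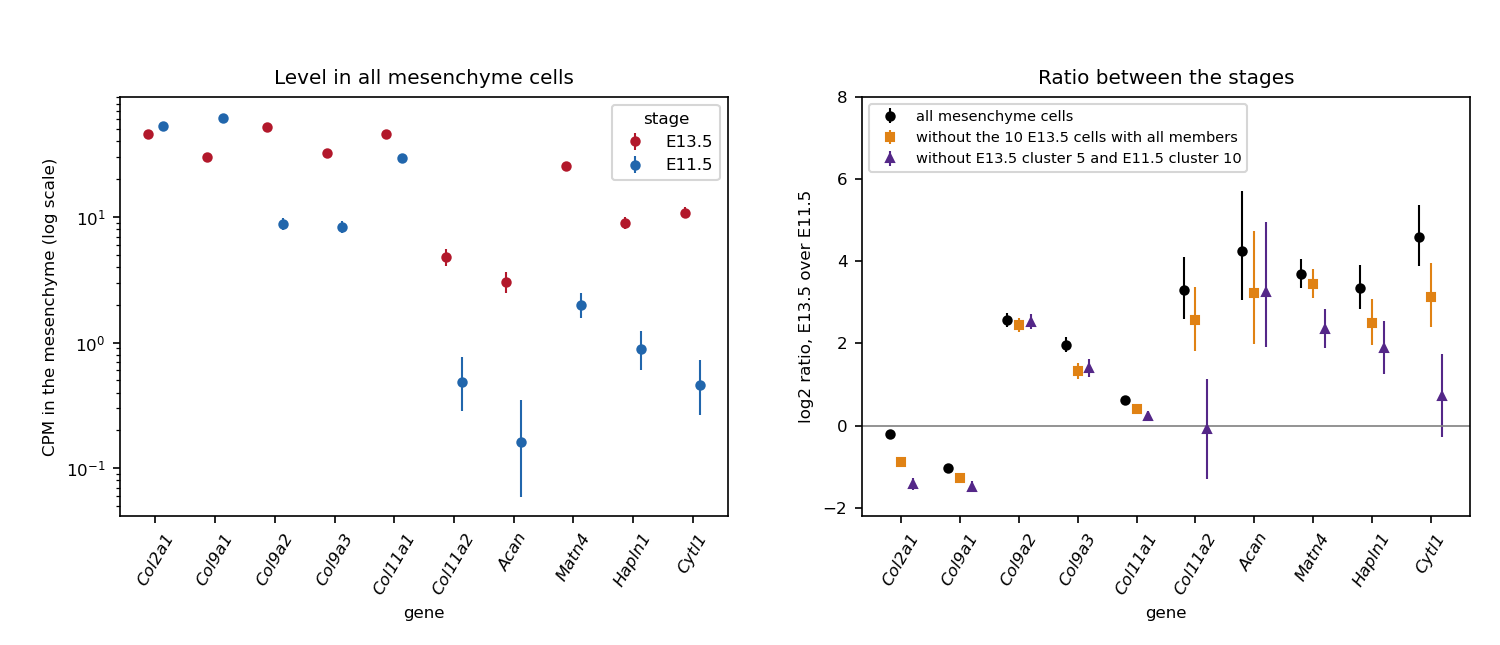
Left, level of each gene in the mesenchyme (CPM, log axis) at E13.5 and E11.5. Right, log2 ratio of E13.5 over E11.5 in all mesenchyme cells, without the 10 E13.5 cells that held all 10 genes, and without the leading cluster of each stage. Bars are 95% counting intervals, and bars not seen are smaller than the point. The genes with low levels at E11.5 have the largest ratios, and Col11a2 drops to a log2 ratio of -0.071 once E13.5 cluster 5 and E11.5 cluster 10 are left out.

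The leading cluster of each stage was the one with the highest summed level of the 10 genes. At E13.5 it was cluster 5, 422 cells that the authors named osteogenic progenitors, with 997 CPM in sum (968 to 1026). Its leading genes by level over the other clusters were Ibsp, Ifitm5, Smpd3, Sp7, Cytl1, Frzb, Runx2, Matn4, Dlx5 and Col2a1, a mixture of bone genes and cartilage genes. At E11.5 it was cluster 10, 269 cells with 464 CPM in sum (433 to 496), led by Sox9, Mecom, Col2a1 and Col9a1. At E13.5, 7 of the 10 genes had their highest cluster level in cluster 5, where 1.38% of all 14890 genes with at least 20 UMIs had theirs. At E11.5, 4 of the 10 had their highest level in cluster 10, where 5.54% of 13404 genes had theirs. Within counting error, the E13.5 levels of Col9a3, Acan and Hapln1 in cluster 5 overlapped those in cluster 21. At E11.5 Col9a1 in cluster 10 overlapped cluster 0, and Col11a1 overlapped cluster 6. Clusters were made from the same counts, and each leading cluster was picked by the sum of these same genes. The counts of genes are thus partly set by that choice and are descriptions.

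**Figure D2:**
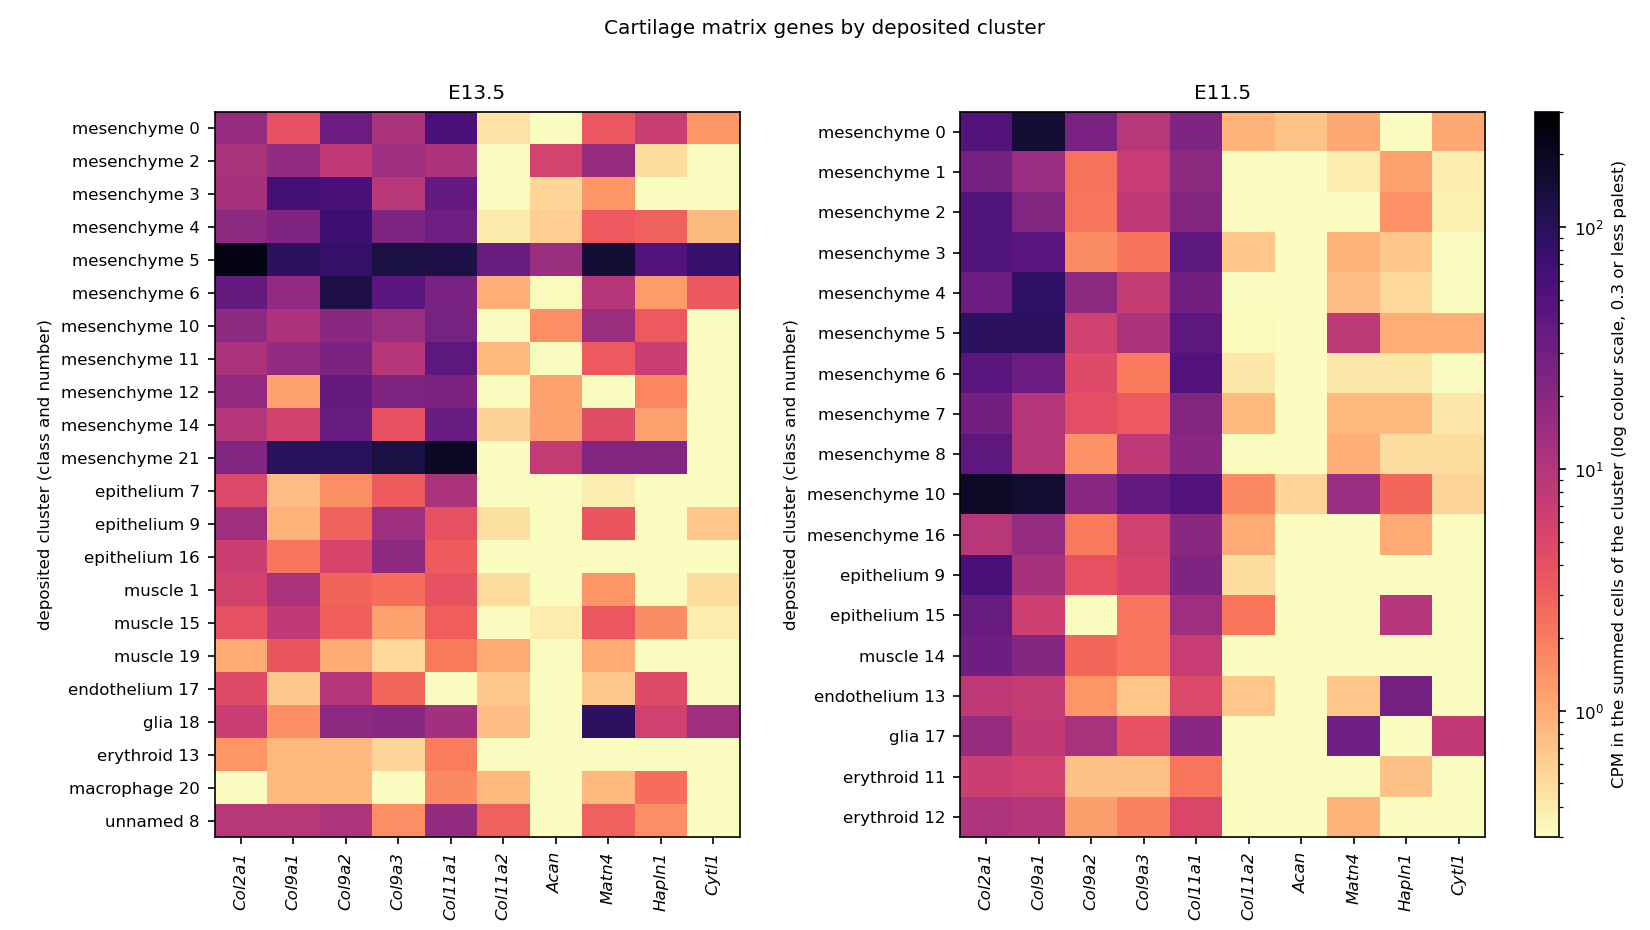
Level of each gene (CPM, log colour scale) in every deposited cluster, E13.5 left and E11.5 right, with clusters ordered by class. Mesenchyme cluster 5 is dark for all 10 genes at E13.5 apart from Acan, while at E11.5 Col2a1, Col9a1 and Col11a1 are spread over nearly all mesenchyme clusters and Col11a2 and Acan are near 0.

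Col2a1 encodes the chain of type II collagen, the main fibril of cartilage. Its mesenchyme level was 45.9 CPM at E13.5 (43.6 to 48.2) and 52.7 CPM at E11.5 (50.4 to 55.1), a ratio of 0.871 (0.814 to 0.931) that is within the limits. The sums were close, but the cells behind them were not. After each cell was thinned to 2000 UMIs, 5.33% of mesenchyme cells at E13.5 (4.64 to 6.09%) and 9.87% at E11.5 (9.12 to 10.7%) held a Col2a1 UMI, while without thinning the shares were 15.4% and 24.6%. The thinning left out 79 shallower mesenchyme cells at E13.5 and 0 at E11.5. Erythroid cells, which should lack the transcript, gave the background share. It was 0 of 206 thinned cells at E13.5, which allows a share of up to 1.77%, and 1.32% at E11.5. Without thinning their shares were 2.42% at E13.5 and 10.5% at E11.5. Haemoglobin made up 88.2% of the erythroid UMIs at E13.5 and 70.9% and 61.3% in the 2 erythroid clusters at E11.5, so a thinned erythroid cell holds few other transcripts and its share can understate the background. Their median depth was 18517 UMIs at E13.5 and 13137 at E11.5, against 8303 and 5895 in the mesenchyme.

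Among the clusters of E13.5, Col2a1 stood at 236 CPM in cluster 5, against 35.9 CPM in cluster 6, the next, and a median of 10.6 CPM over all 22 clusters. The E11.5 clusters were closer together: 175 CPM in cluster 10, 95.2 CPM in cluster 5 and a median of 33.7 CPM over all 18. The 10 mesenchyme cells with the most Col2a1 UMIs held 38.6% of all of them at E13.5 and 3.46% at E11.5. The most in a cell was 127 UMIs at E13.5 and 9 at E11.5. A similar Col2a1 sum was thus counted mostly in few cells with many molecules at E13.5 and in many cells with few molecules at E11.5. The erythroid share without thinning was also larger at E11.5, at 10.5% against 2.42% at E13.5. The part of this background in the E11.5 cells with few molecules was not tested.

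The chains of type IX collagen, which together form the molecule on the fibril surface, differed from each other. Col9a1 was at 29.9 CPM in the mesenchyme at E13.5 (28.1 to 31.8) and at 61.5 CPM at E11.5 (59.0 to 64.1), 2.06-fold lower at E13.5 (1.91 to 2.22), and was the lower gene of the set. Col9a2 was at 52.3 CPM at E13.5 (49.9 to 54.8) and 8.85 CPM at E11.5 (7.92 to 9.86), 5.91-fold higher (5.25 to 6.67). Col9a3 was at 32.6 CPM at E13.5 (30.7 to 34.6) and 8.36 CPM at E11.5 (7.46 to 9.35), 3.90-fold higher (3.44 to 4.44). The thinned shares of cells moved the same way, at 4.50% for Col9a1, 8.63% for Col9a2 and 3.66% for Col9a3 at E13.5, and 11.1%, 1.88% and 1.80% at E11.5. Without thinning, Col9a1 was in 12.7% of mesenchyme cells at E13.5 and 24.1% at E11.5. The erythroid background shares were then 1.45% and 9.43%, and their part in the Col9a1 ratio was not tested.

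Their clusters differed too. At E13.5 Col9a3 was highest in cluster 5, at 129 CPM, with cluster 21 at 127 CPM, while Col9a2 was highest in cluster 6, at 124 CPM (112 to 136), above its 83.6 CPM in cluster 5 and overlapping cluster 21, at 96.9 CPM, within counting error. Cluster 6, 388 mesenchyme cells led by Aldh1a3, Thbs4 and Meox1, had a Col9a2 UMI in 49.0% of its cells but 17.6 CPM of Col9a1. Cluster 3, led by Barx1, held both, with 63.1 CPM of Col9a1 and 60.5 CPM of Col9a2 but 12.2 CPM of Col2a1. Col9a1 was as high in cluster 21 (96.9 CPM, 51.6 to 166) as in cluster 5 (94.5 CPM) within counting error, but cluster 21 was 72 shallow cells with a median of 1833 UMIs. At E11.5 Col9a1 was at 159 CPM in cluster 10 and at 149 CPM (139 to 160) in cluster 0, whose 935 cells were led by Cited1, Nrk and Foxf1 and of which 53.0% held a UMI. In Col9a2, cluster 0 was at 25.9 CPM and cluster 10 at 20.7 CPM, which overlap within counting error, while Col9a3 was highest in cluster 10, at 37.6 CPM.

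Type XI collagen, the core of the fibril, needs both Col11a1 and Col11a2. Col11a1 was at 45.6 CPM at E13.5 (43.3 to 47.9) and 29.7 CPM at E11.5 (28.0 to 31.5), 1.54-fold higher (1.42 to 1.66). That call ends with median-of-ratios size factors, at 1.39-fold (1.29 to 1.51). Col11a2 was at 4.78 CPM at E13.5 (4.08 to 5.57) and 0.483 CPM at E11.5 (0.286 to 0.763), 9.91-fold higher (6.08 to 17.1), from 164 and 18 UMIs. Col11a1 was spread over many E13.5 clusters, at 186 CPM (121 to 275) in the shallow cluster 21, 126 CPM (116 to 137) in cluster 5, which overlaps it, and 58.4 CPM in cluster 0, led by Ebf1. Cluster 5 held 36.1% of its mesenchyme UMIs. Col11a2 had 92.7% of its mesenchyme UMIs in cluster 5, at 33.9 CPM against 3.05 CPM in the next cluster. At E11.5 Col11a1 was at 51.3 CPM in cluster 10 and 49.3 CPM in cluster 6, which overlap within counting error, and Col11a2 was at no more than 2.16 CPM in any cluster.

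The genes of the aggrecan complex had few UMIs in the E11.5 mesenchyme. Acan, the aggrecan core protein, was at 3.03 CPM at E13.5 (2.48 to 3.67) and 0.161 CPM at E11.5 (0.0590 to 0.350), from 104 and 6 UMIs, 18.9-fold higher (8.37 to 52.5). At E11.5 its 6 UMIs lay in 6 cells. After thinning 0 of 5899 cells held one, which allows a share of up to 0.0625%, against 0.418% of cells at E13.5. Hapln1, the link protein, was at 9.04 CPM at E13.5 (8.06 to 10.1) and 0.885 CPM at E11.5 (0.609 to 1.24), 10.2-fold higher (7.12 to 15.1). Matn4, a matrilin, was at 25.7 CPM at E13.5 (24.0 to 27.4) and 1.98 CPM at E11.5 (1.56 to 2.49), 12.9-fold higher (10.2 to 16.6). In E13.5 cluster 5 these genes stood at 14.3 CPM for Acan, 49.7 CPM for Hapln1 and 151 CPM for Matn4. Acan was also found in cluster 2, mesenchyme with Stmn2 and Pax1 among its leading genes, at 5.53 CPM (3.51 to 8.30). It was detected in 18 cells in each of these 2 clusters, with 64 UMIs in cluster 5 and 23 in cluster 2.

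Cytl1 encodes a small secreted protein known from cartilage. It was at 10.9 CPM at E13.5 (9.80 to 12.04) and 0.456 CPM at E11.5 (0.265 to 0.730), from 373 and 17 UMIs, 23.9-fold higher (14.7 to 41.4). Of its E13.5 mesenchyme UMIs, 94.1% lay in cluster 5, where it stood at 78.2 CPM, and just 50 of the 3905 cells held it. Col11a2 was the other gene with over 90% of its UMIs in that cluster.

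The cells of E13.5 cluster 5 did not share the genes evenly. Among all 6318 cells of the E13.5 library, 10 held a UMI of all 10 genes, and all 10 lay in cluster 5. A further 18 cells held 7 to 9 of the genes, 17 of them in cluster 5. No E11.5 cell held all 10, and the most there was 8 genes, in 2 cells. These groups of cells were set after their values were seen, and their member levels follow from the way they were picked, so they are a description.

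**Figure D3:**
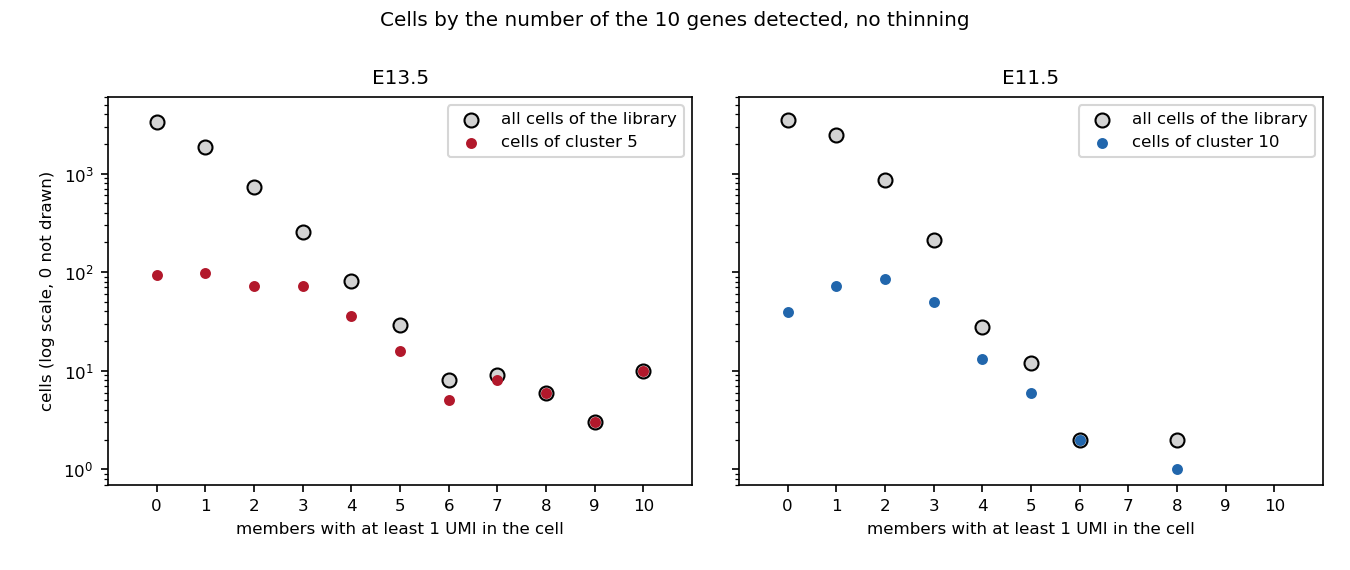
Number of cells (log axis) by how many of the 10 genes had at least 1 UMI in the cell, without thinning, at E13.5 (left) and E11.5 (right). Grey circles are all cells of the library and coloured points the cells of the leading cluster. At E13.5 the counts fall to 3 cells with 9 genes and then stand at 10 cells with all 10, and at E11.5 they end at 2 cells with 8.

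The 10 cells were deeper than the rest of the cluster, with a median of 14679.5 UMIs against 8803 in the 17 cells with 7 to 9 genes and 9803 in the 395 others. Thinned to 2000 UMIs, each of the 10 held 7 to 10 of the genes, with a median of 8, while no other E13.5 cell held over 7. The 10 genes made up 1.46% of all UMIs in the 10 cells, 0.460% in the 17 cells and 0.0379% in the 395. Each of the 10 cells held between 131 and 391 UMIs of the set. Their Col2a1 UMIs, cell by cell, were 127, 75, 70, 69, 55, 51, 50, 45, 34 and 31. Their Acan UMIs were 13, 10, 6, 4, 4, 4, 3, 3, 3 and 3, and their Cytl1 UMIs ran from 11 to 38. By the authors' phase calls 5 of the 10 were in G1, 4 in S and 1 in G2M.

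These 10 cells, 2.37% of cluster 5, held 82.8% of its Acan UMIs, 70.1% of Col9a3, 67.2% of Cytl1, 62.3% of Hapln1 and 57.3% of Col2a1. For the other genes the share was smaller, from 20.2% for Matn4 to 44.1% for Col11a2. Over the whole E13.5 library they held 34.4% of all Col2a1 UMIs and 58.9% of all Cytl1 UMIs. Col2a1 stood at 4100 CPM in the 10 cells (3780 to 4439), 916 CPM in the 17 cells (772 to 1078) and 73.9 CPM in the 395 (65.9 to 82.6). Without the 10 cells the mesenchyme ratio of Col2a1 was 0.537 (0.497 to 0.580), which counts as lower at E13.5, and that of Col11a1 was 1.33 (1.22 to 1.44), no longer past the limit. Other ratios fell in size but stayed past the limit, at 9.28 for Acan (3.98 to 26.5), 8.80 for Cytl1 (5.30 to 15.5), 5.66 for Hapln1 (3.88 to 8.49), 5.89 for Col11a2 (3.54 to 10.3) and 2.50 for Col9a3 (2.18 to 2.86). The 8 higher genes then became 7, and the number with their highest level in cluster 5 fell to 4. Without both leading clusters 5 genes were higher and 2, Col2a1 and Col9a1, lower, and Col11a1, Col11a2 and Cytl1 were within the limits. The shares over all genes are not given for these smaller sets of cells, so these counts have no background beside them.

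Genes outside the set also set these cells apart. Matn1, a cartilage matrilin, was at 473 CPM in the 10 cells (369 to 597) and Matn3 at 392 CPM (297 to 506), and neither had a UMI in any other cell of the cluster. Lect1 (now Cnmd, chondromodulin, a cartilage protein that holds back vessels) was at 892 CPM in the 10 cells, 203 CPM in the 17 and 8.13 CPM in the 395. Sox9 was at 378 CPM (286 to 491), 95.4 CPM and 48.3 CPM in the same order of cells, Sox5 at 101, 38.2 and 5.50 CPM, and Sox6 at 169, 63.6 and 23.7 CPM. The bone genes Sp7 and Ibsp ran the other way. Sp7, a factor of bone-forming cells, was at 13.5 CPM in the 10 cells (1.64 to 48.8), 57.2 CPM in the 17 and 121 CPM in the 395. Ibsp, bone sialoprotein, was at 0 in the 10 cells and in the 17, and at 1069 CPM in the 395. Col1a1, a collagen of bone that is counted here among the mesenchymal markers, was at 67.5, 591 and 681 CPM. It was not particular to the cluster: the 395 cells held 12.6% of its mesenchyme UMIs, against 85.1% for Sp7.

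Markers of other cell types were also counted in the 10 cells. The epithelial markers Epcam and Cdh1 were at 0, with 12 UMIs over all 5 epithelial markers (81.0 CPM, 41.9 to 142), against 124 CPM in the 395 cells. The 5 muscle markers had 4 UMIs in sum, with Myod1, Myog, Myf5 and Pax7 at 0, the 4 endothelial markers had 2 and the 5 macrophage markers had 2. Erythroid markers were at 979 CPM in the 10 cells and 1809 CPM in the 395. The glial markers had 12 UMIs, 81.0 CPM (41.9 to 142), above the 3.83 CPM of the 395 cells, with Foxd3 at 0, and their part in these values was not tested. Mesenchymal markers were at 371 CPM in sum (280 to 484) in the 10 cells and 2000 CPM in the 395, with Twist1 at 0 in the 10.

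**Figure D4:**
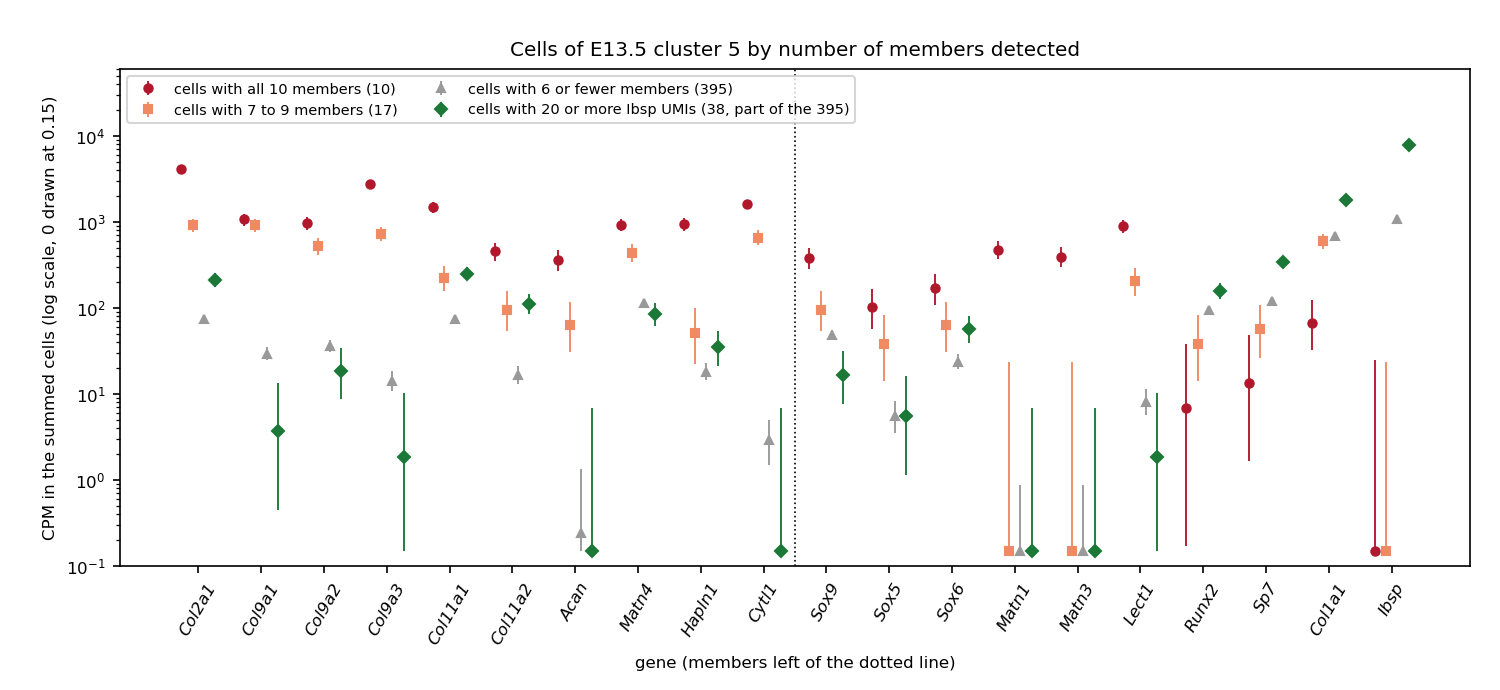
Level (CPM, log axis, 0 drawn at 0.15) of the 10 genes and of 10 other genes in the cells of E13.5 cluster 5, split into the 10 cells with all genes, the 17 with 7 to 9, the 395 with 6 or fewer, and the 38 of these with at least 20 Ibsp UMIs. Bars are 95% counting intervals. Matn1 and Matn3 are seen in the 10 cells and at 0 in the others, and Ibsp runs the other way, while Col11a1 and Col11a2 are also high in the Ibsp-rich cells.

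Some cartilage collagens were also found in cells rich in a bone gene. Of the cells of cluster 5, 38 held at least 20 UMIs of Ibsp, a threshold set after the values were seen, and none of these was among the 10 cells. Their Col1a1 stood at 1815 CPM and their Sp7 at 342 CPM. In them Col11a2 was at 112 CPM (85.7 to 144), found in 26 of the 38 cells, which held 40.1% of the cluster's Col11a2 UMIs. Col11a1 was at 250 CPM (210 to 296), found in 28 cells, and Col2a1 at 211 CPM (174 to 254), found in 32 cells with at most 10 UMIs each. Of the type IX chains, Col9a2 was at 18.4 CPM (8.81 to 33.8) in 9 cells, Col9a1 at 3.67 CPM from 2 UMIs and Col9a3 at 1.84 CPM from 1 UMI. Acan and Cytl1 were at 0, which allows up to 6.78 CPM. Matn4 stood at 84.5 CPM and Hapln1 at 34.9 CPM. The Ibsp-rich cells thus had both type XI chains with Col2a1 and a lower level of Col9a2, beside little or none of Col9a1, Col9a3, aggrecan and Cytl1.

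At E13.5 Sox9 stood at 62.9 CPM (54.5 to 72.2) in cluster 6 and 60.8 CPM (53.8 to 68.5) in cluster 5, which overlap, while Col2a1 was at 35.9 CPM in cluster 6 and 236 CPM in cluster 5. The third cluster by Sox9 was cluster 4, at 29.2 CPM. In these clusters Col9a2 was at 124 CPM in cluster 6, 83.6 CPM in cluster 5 and 71.6 CPM in cluster 4. Other clusters held Col9a2 with less Sox9. Cluster 21 had 96.9 CPM of Col9a2 and 7.46 CPM of Sox9, from 1 UMI. Cluster 3 had 60.5 CPM of Col9a2 and 12.8 CPM of Sox9. At E11.5 Sox9 was highest in cluster 10, at 185 CPM (166 to 206), then in cluster 5, at 60.5 CPM, the same order as Col2a1.

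Outside the mesenchyme, each level was set against the level that would come with the Prrx1 of that class, a mesenchymal transcript, at the ratio seen in the mesenchyme. In E11.5 erythroid cells the observed level was 1.18 times this for Col2a1 (0.892 to 1.54), 0.922 times for Col9a1 (0.685 to 1.22) and 0.879 times for Col11a1 (0.557 to 1.32). Erythroid values therefore lay at what Prrx1 brought with it, within counting error. E11.5 endothelium was alike for Col2a1, at 1.07 times (0.551 to 1.86).

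**Figure D5:**
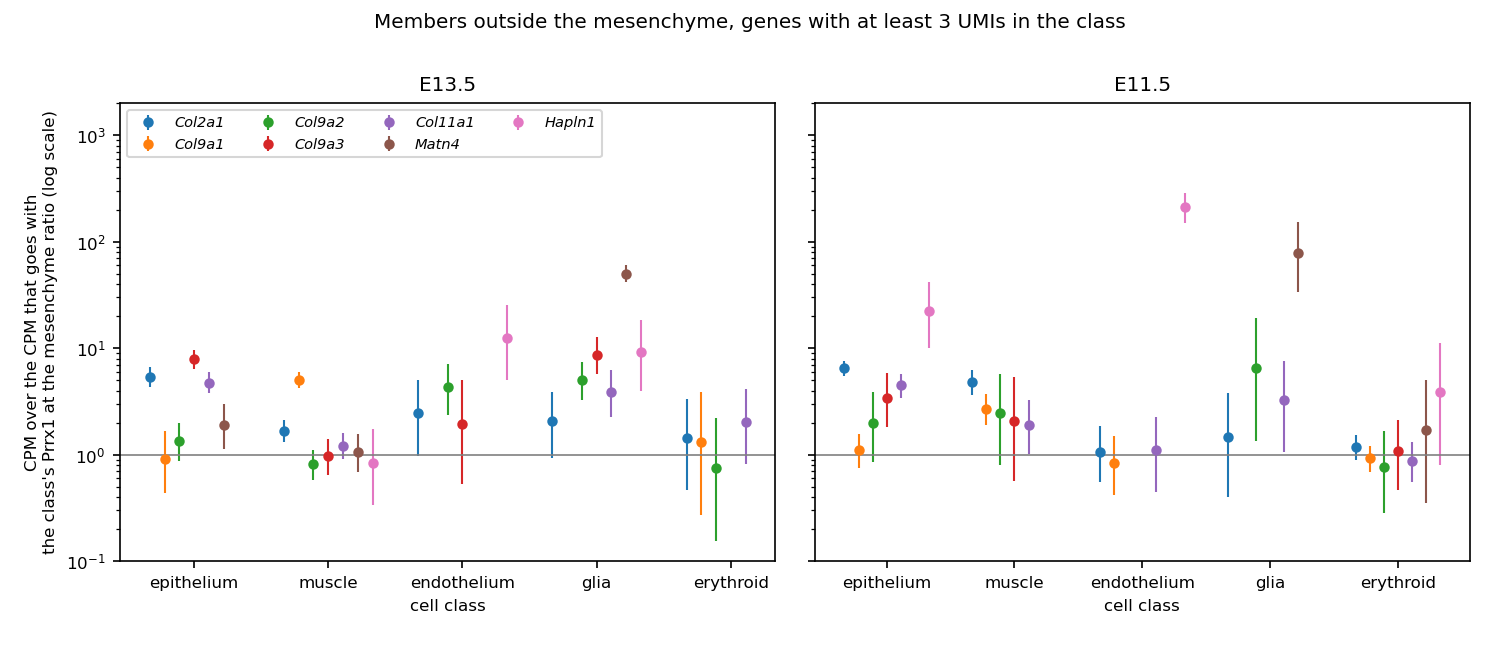
Observed level of 7 of the genes in each class outside the mesenchyme, divided by the level that goes with the Prrx1 of the class at the mesenchyme ratio (log axis, line at 1), at E13.5 (left) and E11.5 (right). Points need 3 UMIs, and bars are 95% counting intervals of the UMI sum. Hapln1 in E11.5 endothelium and Matn4 in glia stand far above 1, and Col2a1 and Col11a1 in epithelium stand above it at both stages, while all erythroid intervals reach 1.

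Epithelium, which covers the prominence, held fibril genes above that level. Col2a1 was at 8.58 CPM in epithelium at E13.5 (6.91 to 10.5), 5.38 times the level that goes with Prrx1 (4.33 to 6.61), and at 52.6 CPM at E11.5 (44.6 to 61.5), 6.46 times (5.48 to 7.55). Its E11.5 level in epithelium was thus close to the 52.7 CPM of the mesenchyme. After thinning, 1.64% of epithelial cells at E13.5 and 10.6% at E11.5 (7.79 to 14.03%) held a Col2a1 UMI. Col11a1 was at 7.54 CPM at E13.5 and 20.6 CPM at E11.5, 4.76 and 4.48 times the level that goes with Prrx1. Both were lower at E13.5, Col2a1 by 6.13-fold (4.70 to 8.03) and Col11a1 by 2.73-fold (1.92 to 3.85). Erythroid Col2a1 was also lower at E13.5, at 1.39 CPM against 8.996 CPM at E11.5, or 11.8 CPM against 26.2 CPM when haemoglobin is left out of the sums, and the part of free RNA in the epithelial ratio was not tested. Col9a3 was at 8.95 CPM in epithelium at E13.5 and 4.38 CPM at E11.5, 2.04-fold higher (1.14 to 3.98), while Col9a1 in epithelium was at 0.907 and 1.10 times what goes with Prrx1 and was not above it.

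In skeletal muscle Col9a1 stood above that level, at 9.48 CPM at E13.5 (7.97 to 11.2), 5.06 times (4.26 to 5.98), and 20.8 CPM at E11.5 (14.7 to 28.6), 2.69 times (1.91 to 3.70). Muscle Col2a1 was at 4.84 CPM at E13.5 and 31.8 CPM at E11.5, 1.68 and 4.80 times. In the glia, cells around nerves that express Sox10, Matn4 was at 93.9 CPM at E13.5 (78.0 to 112), 50.2 times (41.7 to 59.9), and at 31.1 CPM from 8 UMIs in 26 cells at E11.5. E13.5 glia also held Cytl1 at 13.7 CPM (8.14 to 21.7), Col9a3 at 20.6 CPM (13.6 to 30.0) and Col9a2 at 19.1 CPM (12.3 to 28.2). Acan was at 0 there, which allows up to 2.82 CPM.

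Hapln1 had its highest E11.5 level outside the mesenchyme. In endothelium, the lining of vessels, it was at 4.69 CPM at E13.5 (1.88 to 9.66) and 27.6 CPM at E11.5 (19.7 to 37.6), 5.89-fold lower at E13.5 (2.61 to 15.6). The E11.5 level was 212 times what goes with Prrx1 (151 to 288), and the next E11.5 cluster, epithelial cluster 15, stood at 9.70 CPM. The 40 UMIs lay in 26 of the 162 cells of the cluster, with at most 4 in a cell, and 24 of these 26 cells held Cdh5, an endothelial cadherin, as did 128 of all 162. That cluster also led with Pf4 and Ppbp, platelet genes. Of its 9 cells with at least 3 Pf4 UMIs 1 held Hapln1, against 26 of all 162, and the part of platelet-type cells in the Hapln1 level was not tested.

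Other genes of cartilage matrix and its making were counted by the same rule in the mesenchyme, from lists chosen with earlier results known. The measured cartilage matrix genes outside the set numbered 8, of which 7 were higher and 1 was lower at E13.5. Their median log2 was 1.04, and the shares over all genes were 27.0% and 12.2%. The list held 16 genes, of which Matn1, Chad, 3110079O15Rik, Prg4 and Susd5 were listed at E13.5 only. Genes not listed at both stages have no ratio in any of these lists. Lect1 was 10.6-fold higher (6.92 to 16.8) and Matn2 9.28-fold higher (7.21 to 12.1). The 10 E13.5 cells that held all members had 56.7% of the E13.5 mesenchyme UMIs of Lect1. They also had 92.1% of those of Matn3, 1 of the 7 higher genes, from 63 UMIs at E13.5 and 30 at E11.5. The ratios of this list without these cells are not given, so its count rests in part on them. Mia was 1.70-fold higher (1.39 to 2.09), and Ucma, a secreted cartilage protein, was lower, at 2 UMIs at E13.5 and 97 at E11.5, a ratio of 0.0224 (0.00268 to 0.0832). Of 9 regulators 3 were higher and 2 lower (median -0.29). Foxc1 was 4.50-fold higher (2.53 to 8.51) and Runx3 3.05-fold higher (2.33 to 4.02). Sox5 was 3.68-fold lower (2.79 to 4.92) and Sox6 1.85-fold lower (1.52 to 2.26), and Sox9 was within the limits at a ratio of 0.726 (0.662 to 0.796).

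Of 19 genes of collagen folding and secretion, 13 were higher and 1 lower, with a median of 0.99. Adamts2, which trims the amino end of fibril collagens, was 10.1-fold higher (7.69 to 13.6) and P4ha3, a prolyl hydroxylase chain, 3.82-fold higher (3.26 to 4.49). Sec23a, a coat protein of vesicles that leave the endoplasmic reticulum, was 1.53-fold lower (1.42 to 1.64), and P3h2 was at a ratio of 0.920 (0.797 to 1.06). Of 18 genes that make and sulfate glycosaminoglycans, the side chains of aggrecan, 6 were higher and none lower, with a median of 0.38, a count of higher genes near the 27.0% of all genes. Papss2, which makes the sulfate donor, was 19.2-fold higher (8.54 to 53.5), from 106 and 6 UMIs, and Csgalnact1, which starts chondroitin chains, 3.60-fold higher (2.41 to 5.53). Ugdh and Chst3 had the lowest ratios of that list, 0.827 (0.781 to 0.875) and 0.893 (0.613 to 1.29).

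Of 7 measured genes of the hyaluronan matrix 3 were higher and 4 within the limits, with a median of 0.95, where 27.0% of all genes were higher, so that count too is near the background. Cd44, a hyaluronan receptor, was 19.8-fold higher (12.1 to 34.4) and Vcan, versican, 2.72-fold higher (2.61 to 2.84), while Tnfaip6 was at a ratio of 0.720 (0.663 to 0.783) and Ncan at 0.901 (0.531 to 1.52). All 9 measured proteases and inhibitors of cartilage matrix were higher, with a median of 1.28, from Mmp9, a gelatinase, at 10.5-fold (5.29 to 23.8) and Adamts5, an aggrecanase, at 4.55-fold (3.60 to 5.80), down to Adamts4 at 1.95-fold (1.63 to 2.36) and Timp1, an inhibitor, at 1.59-fold (1.45 to 1.75).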

How the data were processed

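Single-cell RNA was measured in 1 library per stage. The deposited tables hold raw UMI counts of genes by cells. The authors also deposited metadata with clusters, lineage names, the mitochondrial share as a fraction and cell cycle scores, of which only the phase calls were used. Per the submitters' processing notes, the tools included Cell Ranger 2.0.0 and Seurat 2.3.4 and the build was mm10, without role or order. How cells were filtered, and whether doublets were removed, is not given in the sources used here, as for the annotation release. The deposited cells differ in lowest UMI count (500 at E13.5 and 2253 at E11.5) and highest mitochondrial share (19.98% and 7.90%). Doublets were kept in the main values.

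Clusters were put in classes by the authors' lineage names, checked against markers. E11.5 cluster 17, whose leading genes were glial, was taken out of the mesenchyme, and E13.5 cluster 8 (median 935.5 UMIs) stayed unnamed. The genes, lists and groups of cells were chosen with earlier results of these data known. All 10 members are named, with the 6 genes per stage whose cluster profile was most like theirs and, of each list, the 2 highest and 2 lowest ratios. Other genes were chosen after their values were seen.

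UMIs were summed per cluster or class and scaled to CPM, with exact Poisson intervals. Ratios have exact conditional binomial intervals and shares exact Clopper-Pearson intervals. Ratios needed 20 UMIs over both libraries. A level or share of 0 was given the upper end of its exact interval as a limit. The ratio step was tested on simulated Poisson sums, which hold only the counting error that its intervals assume. That check does not cover UMIs held mostly by few cells, such as those of Col2a1 at E13.5. Alternatives were size factors, equal cell weights, common cell limits, the 5% deepest cells of each cluster left out, and the leading clusters left out. The scripts ran in Python 3.11.15 with scipy 1.17.1, numpy 2.4.6 and pandas 2.3.3, and matplotlib 3.10.9 drew the figures.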

Additional observations from a re-analysis of the deposited data

Results flagged for a closer look

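For 3 values a class moved against the mesenchyme between the stages, and the difference itself was not tested, as each stage was 1 library. Col11a1 had a ratio of E13.5 over E11.5 of 0.367 (0.260 to 0.521) in epithelium, against 1.54 in the mesenchyme. Col11a1 had a ratio of 0.489 (0.262 to 0.979) in muscle, from 51 and 13 UMIs, where its levels were 1.22 times (0.907 to 1.60) what goes with Prrx1 at E13.5 and 1.91 times (1.02 to 3.27) at E11.5, at or near the background. Hapln1 had a ratio of 0.170 (0.0641 to 0.383) in endothelium, against 10.2 in the mesenchyme.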

How the results depend on the processing

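No paired analysis was possible because each stage was 1 library, and for the same reason no library could be left out. Median-of-ratios size factors remove the median log2 ratio of 0.14 of all genes and left 7 genes higher. Without the leading cluster of each stage the median log2 ratio of the 10 genes was 1.06 instead of 2.94, with 5 genes higher and 2 lower, and Col11a2 turned to a log2 ratio of -0.071 (its ratio was 0.952, 0.407 to 2.18). Without the 10 E13.5 cells that held all genes, an alternative chosen after seeing the data, 2 genes were lower, 7 higher, and 4 had their highest level in cluster 5. Shares over all genes are given for the main setting only, so counts of genes in the other settings have no background beside them. The share of mesenchyme cells with 3 or more of the genes depended on depth: thinned to 2000 UMIs it was 1.73% at E13.5 and 0.509% at E11.5, without thinning 9.35% and 4.07%, and thinned to 1000 UMIs 0.721% and 0.119%. Using only cells with no Xist UMI, also chosen after seeing the data, left 8 genes higher and 1 lower. It moved 4 ratios out of their intervals, among them Col2a1, to 1.03 (0.959 to 1.11). Equal cell weights also left 8 genes higher and 1 lower but moved 2 ratios out of their intervals, Col2a1 to 0.688 and Matn4 to 9.71. Common cell limits, and leaving out the 5% deepest cells of each cluster, kept the 10 ratios within their intervals. Levels from under 20 UMIs, such as Acan and Cytl1 at E11.5, limit what can be said of that stage.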

Other observations

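Detection of the genes in the same mesenchyme cells also differed between the stages, as a description in sparse counts. After thinning to 2000 UMIs, 17 of the 24 Cytl1-positive cells at E13.5 also held Col2a1, and both were in 0.444% of cells (0.259 to 0.710%), against 0.0334% if the genes were independent. For Col9a1 and Col2a1 together the share was 0.915% at E13.5, against 0.240% if independent, and 1.68% at E11.5, against 1.09%. For Col11a1 and Col2a1 it was 0.889% at E13.5, against 0.414%, and 0.661% at E11.5 (0.471 to 0.903%), against 0.599%. Matn4 was rare at E11.5, but 18 of its 27 positive cells held Col2a1. The E13.5 shares include the 10 cells picked above for holding all the genes, and values without them are not given. They are thus not a separate observation from those cells.

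By their profile over clusters of at least 50 cells, the genes most like the mean of the 10 at E13.5 were Omd, Mxra8, Frzb, Gpc6, Asphd2 and Cdh2, with Pearson r of 0.85 to 0.81 over 22 clusters. At E11.5 they were Wwp2, Agtr1a, Sfrp2, Gas2, Sox9 and Mia, with r of 0.94 to 0.84 over 17 clusters. Clusters of a stage share 1 library, so no p is given. Of the 6 genes at E13.5, 4 had their highest level in the shallow cluster 21.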
